A study of Sus scrofa with 18 samples.

Results

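Genes of antigen presentation were followed in the retinas of 18 male piglets, a Landrace and Large White cross, sampled at postnatal day 38. Of the 18 animals, 9 had received pig milk replacer with sialyllactose, a milk sugar in which sialic acid is joined to lactose, and 9 had received pig milk replacer alone at the basal level (control), all from an enrolment age of 3 days and each measured on 1 Affymetrix pig array. The 7 genes were SLA-2 and SLA-3 (heavy chains of pig class I MHC, the swine leukocyte antigens), B2M, TAP1, PSMB8, UBD and SLA-DRA (the class II alpha chain), out of 6765 genes with a probe set of a single gene symbol. All 17 probe sets that the platform annotation assigns to 1 of these symbols alone were taken, and the brightest probe set by mean over all arrays stood for each gene. The genes were chosen by values of these same arrays, their wide spread and shared course between retinas, so spread and co-variation are given below as descriptions with no test. By gene ID they are SLA-2 (100135031), SLA-3 (100037288), SLA-DRA (100135040), B2M (397033), TAP1 (733649), PSMB8 (396975) and UBD (100294688), and in the RefSeq table of Sscrofa11.1 SLA-2 lies next to SLA-3 and PSMB8 next to TAP1. No genome build is named for the arrays, so no positions are given.

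Cells show short peptides of their own proteins on MHC class I molecules, each made of a heavy chain and the light chain beta-2-microglobulin (B2M). The immunoproteasome, with PSMB8 as a catalytic subunit, cuts proteins into such peptides, UBD tags proteins for the proteasome, and the TAP transporter, of which TAP1 is one chain, carries the peptides to the class I molecules in the endoplasmic reticulum. Class II molecules, in contrast, present peptides from engulfed material and are carried mostly by microglia, macrophages and other antigen-presenting cells. Interferons raise class I and its processing genes in many cell types, and interferon gamma raises class II. The healthy neural retina is known for low levels of both.

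The arrays were alike over the 16799 tested probe sets, with correlations between 0.981 and 0.992. Retinal markers were bright: SAG, rod arrestin, averaged 10.6 ± 0.17 with sialyllactose and 10.7 ± 0.10 in control, and GLUL, the glutamine synthetase of Mueller glia, 10.5 ± 0.31 and 10.6 ± 0.22 (log2 RMA values, mean ± SD, n = 9 each). RMA values carry no detection call and differ between probe sets through probe affinity, so levels of different genes were not ranked against each other. No litter, array batch or scan date is named in the labels, so none was tested. The labels name 1 animal per array, and in whole retina a larger share of a cell type and more RNA per cell cannot be told apart.

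In class I heavy chains, the retinas differed about 4-fold from the lowest to the highest animal. SLA-2 ranged from 5.11 to 6.34 around a median of 5.43 with sialyllactose and from 4.70 to 6.73 around a median of 5.55 in control (log2). The highest SLA-2 values were those of control replicates 6 and 8, at 6.73 and 6.59, followed by sialyllactose replicates 1 and 4, both at 6.34, and the diets overlapped over most of their range. The whole span was 4.11-fold. SLA-3 ranged from 3.40 to 4.90 with a median of 4.07 with sialyllactose and from 3.67 to 5.50 with a median of 4.35 in control, a span of 4.29-fold. Its 3 highest retinas were control replicates 3, 6 and 8, and its lowest were sialyllactose replicates 6 and 9.

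The pooled SD within diets, the spread left after each diet's mean is removed, was 0.60 for SLA-2 and 0.65 for SLA-3 on the log2 scale. Over all tested probe sets its median was 0.16 and its 99th percentile 0.49. Class I heavy chain genes are close copies of each other and vary between animals in sequence. The SLA-2 probe set carries the suffix x_at, a kind whose probes can also match related sequences, and 5 further probe sets assigned to several class I genes at once were not used, so the values of single heavy chain genes are uncertain.

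The light chain gave opposite pictures depending on the probe set. In its brightest probe set, B2M hardly varied: it ranged from 8.57 to 8.79 with a median of 8.68 with sialyllactose and from 8.49 to 8.83 with a median of 8.69 in control, a span of 1.27-fold. In its second brightest probe set, it ranged from 7.15 to 9.39 with a median of 7.29 with sialyllactose and from 7.16 to 9.39 with a median of 7.85 in control, a span of 4.71-fold. Over all arrays they averaged 8.68 and 8.12.

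With sialyllactose, the second brightest B2M probe set had 5 retinas at or below 7.29 and 4 at or above 8.63, with none between. In control, 5 retinas lay inside that gap, 1 below it and 3 above it. Sialyllactose replicates 4 and 7 and control replicates 3 and 6 were the highest, all between 9.37 and 9.39. The second brightest set was taken up beside the brightest after its values had been seen.

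All 9 probe sets annotated as B2M were tested, and 2 of them followed the class I heavy chains. Over the 18 retinas, as deviations from the diet mean, the set of brightness rank 2 correlated with SLA-2 at r = 0.87 (Spearman rho 0.86) and that of rank 7 at r = 0.89 (rho 0.86), and these 2 sets correlated with each other at r = 0.97. The other 7 had r between -0.49 and 0.31 with SLA-2, the brightest at 0.31 (rho 0.17). Among these, the set of rank 6 varied widely too, from 4.72 to 6.89 with sialyllactose and from 6.13 to 7.53 in control, but in the other direction (r = -0.44). The annotation gives all 9 the same transcript accession, and no probe sequences were used here, so which of them measure B2M messenger RNA was not tested.

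**Figure D1:**
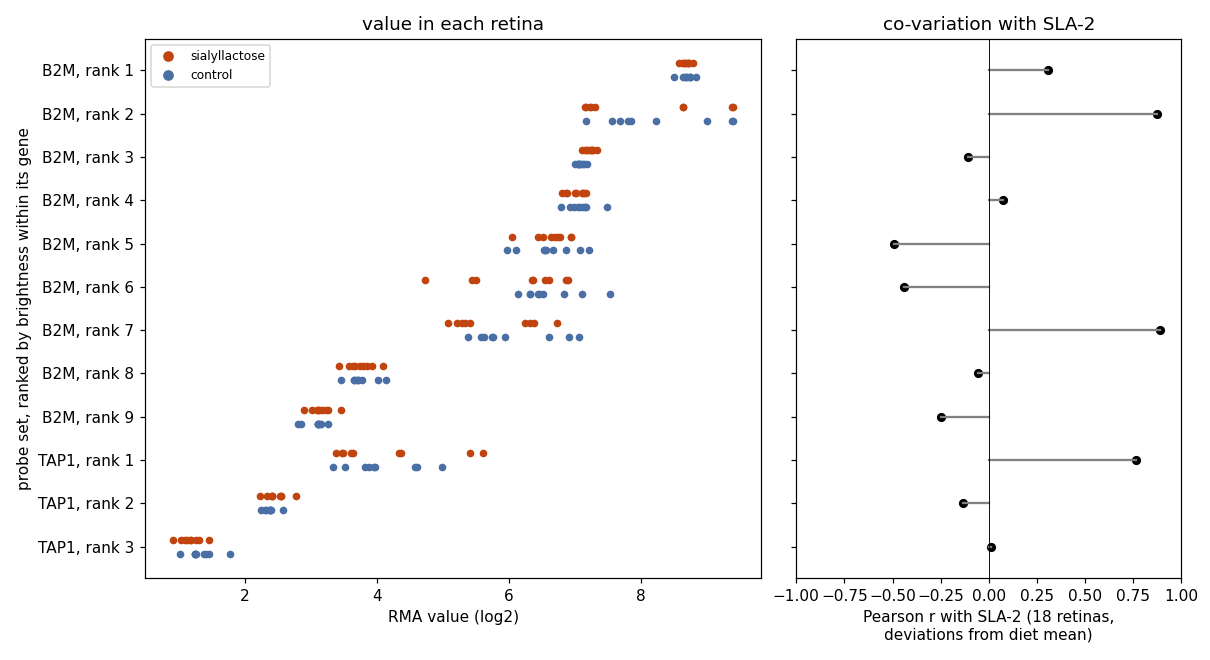
Left, the RMA value (log2) of each of the 9 B2M and 3 TAP1 probe sets in 9 sialyllactose and 9 control retinas, 1 point per retina; right, the Pearson r of each probe set with SLA-2 over 18 deviations from the diet mean. The B2M sets of rank 2 and 7 and the TAP1 set of rank 1 stand out on the right, at 0.87, 0.89 and 0.77, while the brightest B2M set is nearly constant on the left.

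TAP1, the peptide transporter chain, differed between retinas as widely as the heavy chains. In its brightest probe set it ranged from 3.37 to 5.61 with a median of 3.63 with sialyllactose and from 3.33 to 4.98 with a median of 3.95 in control. Sialyllactose replicates 7 and 4, at 5.61 and 5.40, were above every control retina. The span was 4.85-fold and the pooled SD 0.71. The other tested TAP1 probe set ranged only from 2.23 to 2.77 with sialyllactose and from 2.24 to 2.58 in control, and its r with SLA-2 was -0.14. The remaining TAP1 probe set, with a mean of 1.26, lay under the level filter at 1.48 and was not tested, so 16 of the 17 probe sets were.

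The proteasome genes of the group were dim. PSMB8, an interferon-inducible catalytic subunit, ranged from 1.48 to 2.66 with a median of 1.59 with sialyllactose and from 1.19 to 1.84 with a median of 1.56 in control. Sialyllactose replicate 4, at 2.66, stood apart from the next highest retina of its diet at 1.88, and without it the pooled SD was 0.19, against 0.31 with it. The mean of PSMB8 over all arrays was 1.63, just above the level filter, and RMA shrinks differences of such dim probe sets.

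UBD, a ubiquitin-like modifier induced by interferon gamma and tumour necrosis factor, had the widest span of the group, 7.86-fold. It ranged from 1.16 to 3.83 with a median of 1.48 with sialyllactose and from 1.21 to 4.14 with a median of 1.47 in control. No retina lay between 1.68 and 2.35: 13 lay between 1.16 and 1.68, near the level filter, and 5 were spread between 2.35 and 4.14. These 5 were sialyllactose replicates 4 and 7 and control replicates 3, 6 and 8.

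SLA-DRA, the class II alpha chain, varied as much as class I. It ranged from 2.26 to 4.11 with a median of 2.73 with sialyllactose and from 2.30 to 4.43 with a median of 3.01 in control, a span of 4.49-fold with a pooled SD of 0.69. Control replicate 6 was highest at 4.43, then sialyllactose replicate 4 at 4.11 and control replicate 3 at 3.85. The lowest were sialyllactose replicates 5 and 8, at 2.26 and 2.28, and the diets overlapped.

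**Figure D2:**
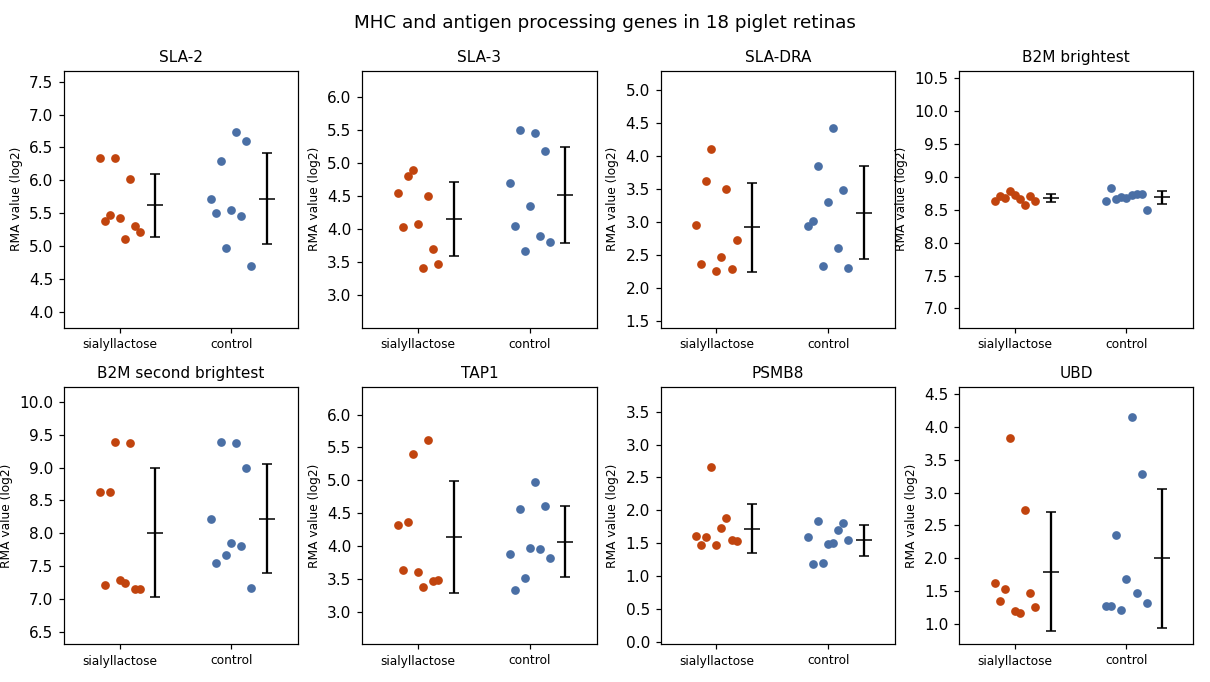
RMA values (log2) of the 7 genes in 9 sialyllactose and 9 control retinas, 1 point per retina in replicate order, with the mean and SD of each diet as a bar to the right; every panel spans the same number of log2 units, and B2M is shown in its brightest and second brightest probe sets. The diets overlap in every panel, and UBD has 5 retinas at 2.35 or above while 13 lie at 1.68 or below.

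Class I, class II and peptide transport genes were high and low in the same animals. For the 6 pairs among SLA-2, SLA-3, SLA-DRA and TAP1, Pearson r of the deviations from the diet mean lay between 0.77 and 0.89 over 18 retinas and Spearman rho between 0.74 and 0.93. Within the 9 sialyllactose retinas r lay between 0.69 and 0.88, and within the 9 control retinas between 0.83 and 0.93. Without the 2 arrays farthest from the median of the first gene it lay between 0.73 and 0.85. These values share the same RNA extracts and arrays, and the SLA-2 probes can also match related class I sequences.

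The second brightest B2M set correlated with these 4 genes at r between 0.87 and 0.93 (rho 0.80 to 0.87), and the brightest at r between -0.05 and 0.31. PSMB8 correlated with them at r between 0.52 and 0.71 (rho 0.46 to 0.66), and without sialyllactose replicate 4, which stands apart in PSMB8, at r between 0.41 and 0.63 over 17 retinas (rho 0.35 to 0.65). Without the 2 arrays farthest in PSMB8 itself r lay between 0.33 and 0.61. UBD correlated with the same 4 genes at r between 0.75 and 0.86 over all 18 retinas (rho 0.78 to 0.81). The 5 retinas with high UBD enter these values. Among the 13 retinas with low UBD, its r was 0.74 with TAP1 (rho 0.66), 0.56 with SLA-2 and 0.57 with SLA-DRA, and without the 2 farthest of these retinas 0.65, 0.23 and 0.41.

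Some animals were high or low in most of the genes. Sialyllactose replicate 4 was among the 4 highest of 18 retinas in all 7 values compared, those of SLA-2, SLA-3, SLA-DRA, TAP1, PSMB8, UBD and the second brightest B2M set. Sialyllactose replicates 2, 5 and 9 and control replicates 4 and 9 were in the lower 9 in all of them. The brightest B2M set was left out of these 7 values and had another order. There sialyllactose replicates 2 and 5 were 7th and 6th, control replicate 4 was 9th and sialyllactose replicate 7 was 17th. Sialyllactose replicate 4 was 2nd there, sialyllactose replicate 9 was 14th and control replicate 9 was 18th. The order was not the same for every gene: sialyllactose replicate 7 was highest of all in TAP1, 4th in UBD, 6th in SLA-2 and 8th in SLA-3. Control replicate 6 was highest in SLA-2, SLA-DRA and UBD but 13th in PSMB8.

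**Figure D3:**
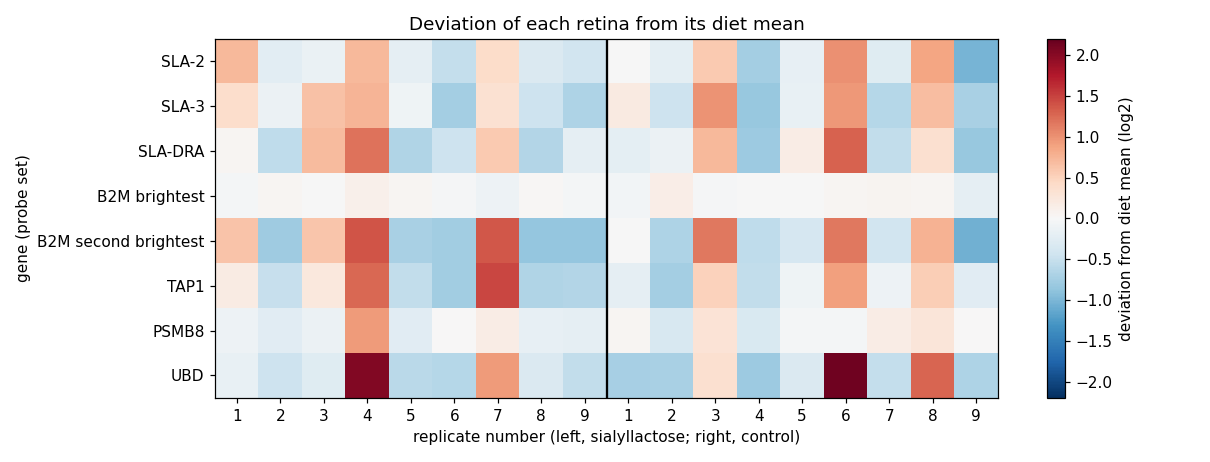
Deviation of each retina from its diet mean (log2, colour), with genes or probe sets in rows and retinas in columns, the 9 sialyllactose retinas on the left and the 9 control retinas on the right by replicate number. Sialyllactose replicates 4 and 7 and control replicates 3, 6 and 8 are warm in nearly all rows, and the row of the brightest B2M set is nearly blank.

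Interferon genes had the same high and low retinas, and TAP1 and the second brightest B2M set followed them most closely of the member values by r with ISG15. ISG15, an interferon-induced ubiquitin-like protein, and MX1, an antiviral GTPase, correlated with TAP1 at r = 0.96 each (rho 0.88 and 0.91; 0.92 each without the 2 farthest arrays). With ISG15, r was 0.95 for the second brightest B2M set (rho 0.97), 0.90 for SLA-DRA (rho 0.88), 0.81 for SLA-3 (rho 0.78), 0.77 for SLA-2 (rho 0.82) and 0.67 for PSMB8 (rho 0.55), and 0.08 for the brightest B2M set (rho 0.13). Without the 2 farthest arrays these were 0.93, 0.88, 0.77, 0.77, 0.51 and -0.03.

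In the 2 retinas with the highest ISG15, sialyllactose replicates 7 and 4 at 8.02 and 7.56, the heavy chains were not at their highest. SLA-2 was 6.02 and 6.34 there, and 6.73 in control replicate 6, where ISG15 was 6.41. Over the 20 tested genes of the interferon list, r exceeded 0.5 in 19 for TAP1, 17 for SLA-DRA and 14 for SLA-2. Over the 5703 tested genes that are not members it did so in 2.52%, 2.52% and 3.58%.

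**Figure D4:**
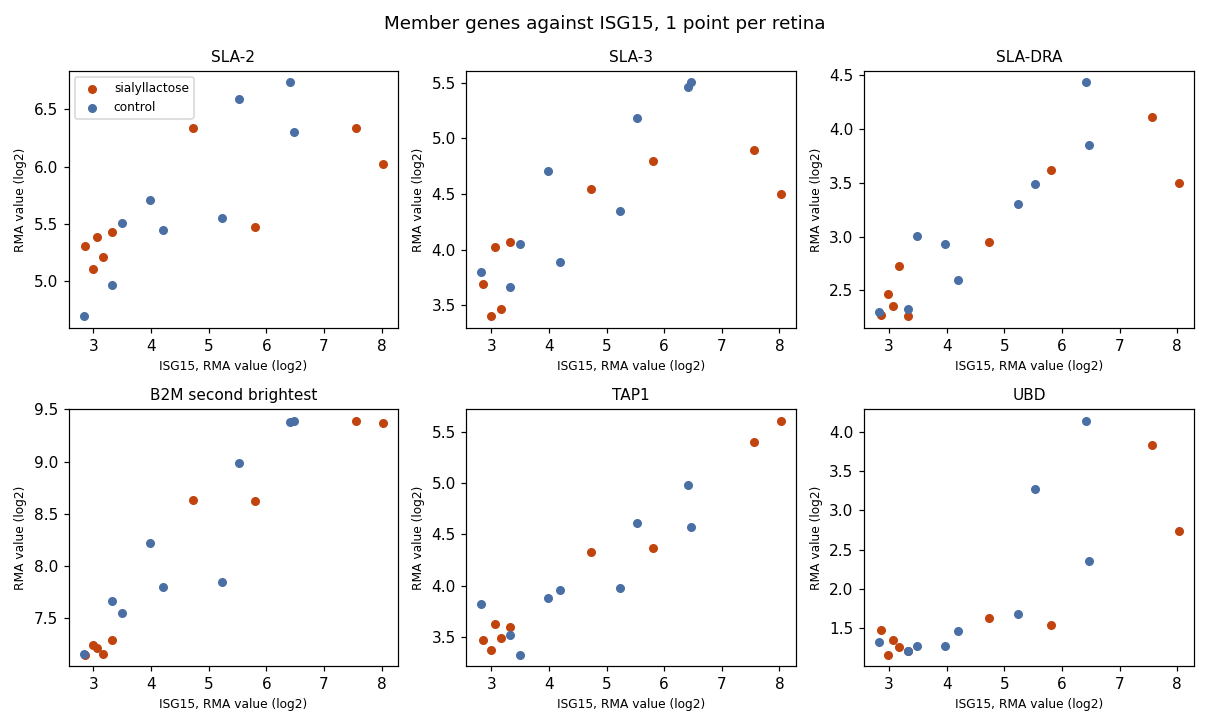
RMA values (log2) of 6 probe sets against ISG15 (log2) in the same retina, 1 point per retina, 9 sialyllactose and 9 control. TAP1 and the second brightest B2M set follow ISG15 most closely, at r = 0.96 and 0.95, while the 2 sialyllactose retinas with the highest ISG15 lie below control replicates 6 and 8 in SLA-2 and SLA-3.

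The genes most alike each member over the 18 retinas, searched among 5703 other genes by r of the deviations from the diet mean, included interferon-induced genes for all member values except the brightest B2M set. For SLA-2 they were LOC100513601 (r = 0.96), the gene next to SLA-2 in the RefSeq table of Sscrofa11.1, then ISG12(A) and LOC100519098 (0.81 each). The LOC100513601 probe set carries the suffix x_at too, and whether its probes and those of SLA-2 match the same sequences was not tested. For SLA-3 they were ISG12(A), PSME2 (a proteasome activator subunit) and EIF2AK2 (the antiviral kinase PKR), all at 0.86. For SLA-DRA they were LOC733579 (0.91), PSME2 (0.90) and RSAD2 (0.90), an antiviral enzyme. For TAP1 they were MX1, ISG15 and ISG12(A), all at 0.96.

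PSMB8 was most like IRF9 (0.82, a subunit of the interferon-activated transcription complex), ZNF146 (0.76) and PARP9 (0.73), and the first of these was 0.60 without the 2 farthest arrays. For UBD they were IFIT1 (0.91), XAF1 (0.89) and LOC100513601 (0.86). Among the 13 retinas with low UBD their r with UBD was 0.79, 0.46 and 0.67 (rho 0.75, 0.54 and 0.69). Without the 2 farthest of these retinas it was 0.80, 0.45 and 0.33. The brightest B2M set was most like CDH13 (0.88), MRPL14 (0.85) and RPS21 (0.84), a cadherin and 2 ribosomal proteins, with 0.71, 0.62 and 0.67 without the 2 farthest arrays. In contrast, the second brightest B2M set was most like ISG12(A) (0.98), EIF2AK2 (0.96) and IFI44L (0.96).

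Of the other class I genes, SLA-6 and SLA-8 had pooled SDs of 0.43 and 0.46, each in the brighter of 2 tested probe sets. SLA-6 averaged 3.32 ± 0.41 with sialyllactose and 3.67 ± 0.46 in control, and SLA-8 averaged 3.24 ± 0.56 and 3.40 ± 0.33 (log2, n = 9 each). Their r with SLA-2 was 0.68 and 0.57, and that of FCGRT, a class I-like receptor for immunoglobulin G, was -0.13. In peptide loading, TAPBP, which holds class I molecules to the transporter, had a pooled SD of 0.22. CALR, a chaperone of the same complex, had 0.27 and CANX 0.11, against 0.71 for TAP1 in its brightest set. Their r with TAP1 was 0.66 for TAPBP, 0.52 for CANX and -0.07 for CALR. Of the 6 tested loading genes that are not members, 3 had an r over 0.5 with TAP1, 2 with SLA-2 and 1 with SLA-DRA. Of all 5703 genes 2.52%, 3.58% and 2.52% did. CD74, the class II invariant chain, and IFI30, a thiol reductase of class II processing, lay under the level filter.

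Immunoproteasome genes and the constitutive core differed in how much they varied. PSME1 and PSME2, the subunits of the activator that interferon gamma induces, had pooled SDs of 0.42 and 0.28 and correlated with TAP1 at r = 0.80 and 0.91. PSMB10, another inducible catalytic subunit, had a pooled SD of 0.23 and an r of 0.49. The 14 constitutive core subunits had a median pooled SD of 0.08. Of these 14, 0 had an r over 0.5 with SLA-2, SLA-DRA or TAP1. Over the 5703 tested genes that are not members 3.58%, 2.52% and 2.52% did, so this count does not set the core apart. PSMB5 had an r of -0.53 with TAP1. PSMB5, the subunit that PSMB8 replaces, was nearly constant at 6.94 ± 0.03 with sialyllactose and 6.95 ± 0.06 in control. Since PSMB8 was dim and PSMB5 was not, their spreads were measured at different precision. The lists as a whole differed in brightness too, with diet means up to 4.87 in the immunoproteasome list and from 5.06 in the core. The part of brightness in their spreads was not tested.

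**Figure D5:**
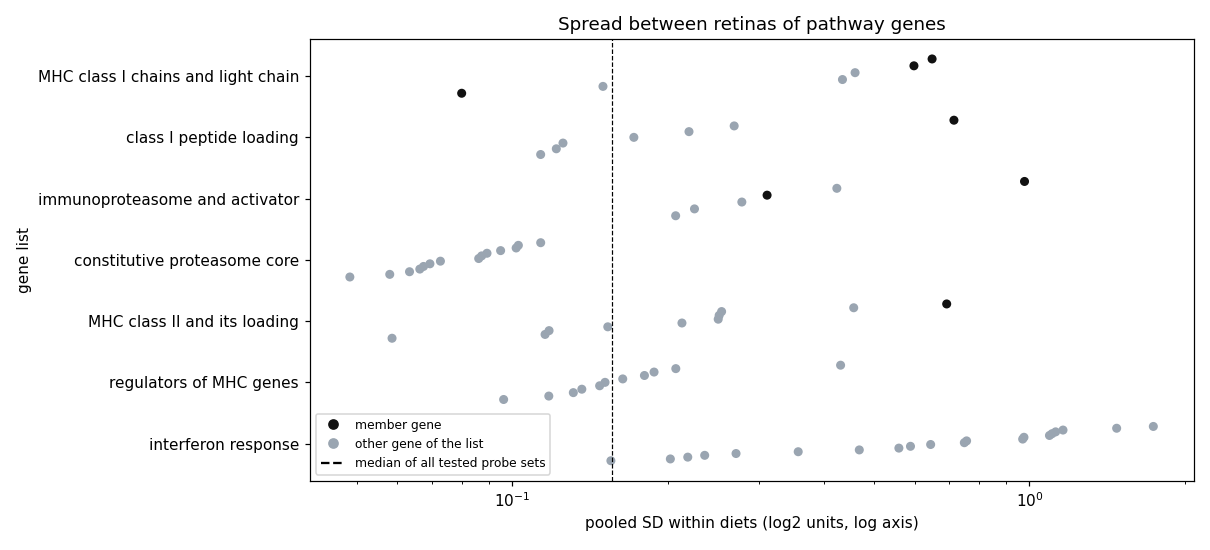
Pooled SD within diets (log2 units, log axis) of the tested genes in 7 lists, 1 point per gene, members in black, with the median of all tested probe sets (0.16) as a dashed line. The 14 constitutive proteasome subunits lie left of the line and the member genes other than B2M, shown at its brightest set, lie right of it.

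Class II genes moved with SLA-DRA to different degrees. SLA-DRB1, its partner chain, correlated with it at r = 0.84 (rho 0.85), SLA-DMB, a chain of the class II peptide editor, at 0.74 (rho 0.75), SLA-DQB1 at 0.73 (rho 0.63) and SLA-DQA1 at 0.60 (rho 0.63). SLA-DMA, the other chain of the editor, reached only 0.12 in the brighter of its 2 tested probe sets. SLA-DOA, a chain of the editor's modulator, had an r of -0.07. Of the regulators, IRF1, an interferon-induced transcription factor, correlated with SLA-DRA at 0.78 (rho 0.71; 0.56 without the 2 farthest arrays). CIITA, the master activator of class II genes, did so at -0.12 (rho -0.18). Of the 11 tested regulators, 3 had an r over 0.5 with SLA-DRA, against 2.52% of 5703 genes. Besides IRF1 these were NFYB at 0.52 (rho 0.61) and IFNGR1 at 0.51 (rho 0.56). Without the 2 farthest arrays NFYB had 0.33 and IFNGR1 0.46. CIITA was dim, at 2.31 ± 0.10 with sialyllactose and 2.19 ± 0.15 in control.

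Many markers of the cells that usually carry class II lay under or near the level filter, which left out 30% of probe sets. Of 14 microglia and macrophage genes with a named probe set, 7 lay under it, among them PTPRC, ITGAM and CD163. The summed linear level of the other 7 ran from 22.7 to 30.7 with sialyllactose and from 24.0 to 40.6 in control. The mean deviation of these 7 genes correlated with SLA-3 at r = 0.63 (rho 0.57). With SLA-2 the r of this mean was 0.46 and with SLA-DRA 0.43 (rho 0.40). Without the 2 arrays farthest in the MHC gene, r was 0.68 for SLA-3, 0.60 for SLA-2 and 0.56 for SLA-DRA. Single genes disagreed: r with SLA-DRA ran from -0.36 for CD14 to 0.50 for C1QC. With sialyllactose 3 of the 7 were higher and 4 lower, with a median difference of -0.0005. LAPTM5, a lysosomal protein of leukocytes, differed most of the 7. It averaged 2.43 ± 0.31 with sialyllactose and 2.81 ± 0.43 in control (limma adjusted p = 0.753).

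Of 17 lymphocyte and NK cell genes with a named probe set, 11 lay under the level filter, against 30% of probe sets. CD3E, CD4 and CD8A were among these 11. The 6 tested lymphocyte and NK cell genes summed to between 21.2 and 23.0 with sialyllactose and between 20.1 and 23.3 in control. Their mean deviation had an r of -0.02 with SLA-DRA. Of 14 endothelial and pericyte genes 3 lay under the filter, and the other 11 summed to between 127 and 168 with sialyllactose and between 131 and 172 in control, with an r of -0.19. With TAP1 the endothelial mean had an r of -0.76 within sialyllactose retinas and 0.50 within control retinas (n = 9 each), a difference that was not tested. Over all 18 retinas this r was -0.31, and without the 2 arrays farthest in TAP1 it was 0.22. At an unadjusted p under 0.05, 1 of the 7 microglia genes was lower with sialyllactose, 2 of the 6 lymphocyte genes higher and 3 of the 11 endothelial genes lower, where 6.30% of all probe sets reached that threshold, and 0 had an adjusted p under 0.05 by limma. The part of these cells in the spread of the MHC genes was not tested.

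The diet comparison asked whether sialyllactose shifted these genes, and none of the 7 passed the test. SLA-3 averaged 4.16 ± 0.56 with sialyllactose and 4.51 ± 0.73 in control, SLA-2 5.63 ± 0.48 and 5.72 ± 0.70, SLA-DRA 2.92 ± 0.67 and 3.14 ± 0.71, and UBD 1.80 ± 0.90 and 2.00 ± 1.05. TAP1 averaged 4.14 ± 0.85 and 4.07 ± 0.54, PSMB8 1.72 ± 0.37 and 1.54 ± 0.23, and B2M 8.68 ± 0.06 and 8.69 ± 0.09 in its brightest set (log2, mean ± SD, n = 9 each). By limma over all tested probe sets, 0 of the 7 genes had an adjusted p under 0.05, as in 0% of the 16799, and 0 of the 7 had an unadjusted p under 0.05, against 6.30% of all. Means were lower with sialyllactose in 5 of the 7 genes and higher in 2, where 53.4% of all probe sets were lower and 46.6% higher. The direction over all probe sets turned with scaling: with arrays centred on their median 55.8% were higher, and after quantile normalization 51.2%. Of the 7 genes only B2M turned under both, so that 4 were lower and 3 higher.

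The differences, sialyllactose minus control, were smaller than the pooled SD within diets in every member gene, but most intervals were wide. That of SLA-3 was -0.36 on the log2 scale (95% interval -0.92 to 0.21; limma adjusted p = 0.863), with 5 of 9 sialyllactose retinas below the control median. That of SLA-DRA was -0.22 (-0.82 to 0.38; adjusted p = 0.928), with 6 of 9 below. The intervals of SLA-2 (-0.62 to 0.42), TAP1 (-0.55 to 0.69), UBD (-1.05 to 0.64) and PSMB8 (-0.10 to 0.45) also held 0, while that of the brightest B2M set was narrow (-0.11 to 0.09). The second brightest B2M set differed by -0.21 (-0.995 to 0.57; adjusted p = 0.955).

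The sign for SLA-2 (-0.10) turned without control replicate 6 (0.03) or 8 (0.01) and that for UBD (-0.20) without control replicate 6 (0.07). The sign for TAP1 (0.07) turned without sialyllactose replicate 4 (-0.09) or 7 (-0.11) or control replicate 2 (-0.02). The PSMB8 difference of 0.18 was 0.06 without sialyllactose replicate 4, and that of SLA-DRA was -0.06 without control replicate 6.

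Of the 16 tested probe sets, the smallest p belonged to the B2M set of brightness rank 3, whose r with SLA-2 was -0.11. It ranged from 7.11 to 7.33 with a median of 7.22 with sialyllactose and from 6.99 to 7.18 with a median of 7.07 in control. All 9 sialyllactose retinas were above the control median, with a difference of 0.13 (95% interval 0.04 to 0.22), which did not pass (limma adjusted p = 0.691).

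The pathway lists also gave no gene past the threshold. With arrays centred, the direction of most genes in each list held except in peptide loading, while that over all probe sets turned. In the list of class I chains 6 of 6 tested genes, 3 of them members, were lower, with a median difference of -0.13, and in class II and its loading 9 of 10, SLA-DRA included, were lower, with a median of -0.08, where 53.4% of all probe sets were lower, with a median of -0.01. With arrays centred on their median 5 of 6 and 8 of 10 were lower, and 44.2% of all probe sets. SLA-DMA, in its brighter probe set, averaged 5.19 ± 0.08 with sialyllactose and 5.36 ± 0.14 in control (limma adjusted p = 0.753). SLA-DQA1 averaged 2.85 ± 0.24 and 3.09 ± 0.27 (limma adjusted p = 0.773). These were the 2 genes of the 10 with an unadjusted p under 0.05, a threshold that 6.30% of all probe sets reached. In peptide loading 4 of 7 were lower, in the immunoproteasome list 4 of 6, in the constitutive core 13 of 14 and among the regulators 8 of 11, with 0 at an unadjusted p under 0.05 in each. With arrays centred these were 3 of 7, 4 of 6, 10 of 14 and 8 of 11. In the interferon list 14 of 20 were higher with and without centring, with a median of 0.05 without it, and 0 of 20 had an unadjusted p under 0.05.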

How the data were processed

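The deposited table holds 1 log2 value per probe set and array for 24123 probe sets and 18 arrays. The deposited log2 values, 0.146 to 12.8, were made with RMA in tools that include Affymetrix Expression Console, per the submitters' processing notes; settings are not given in the sources used here. After 124 control probe sets and the 30% of the rest with the lowest mean (7200) were left out, 16799 were tested. Symbols came from the platform annotation (1 symbol for 10099 probe sets, several for 198, none for 13826), and all 7 members were found by gene ID in the RefSeq table of Sscrofa11.1. Groups and replicate numbers came from the sample titles.

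The diet difference (sialyllactose minus control) was fitted with limma 3.58.1 in R 4.3.3 (lmFit, eBayes, no covariates), with Benjamini-Hochberg adjustment over all tested probe sets and a threshold of 0.05, tested on simulated data. The number of arrays limits the precision. The members and the 13 gene lists were chosen with earlier results of these data known. Named were all members, the 3 most alike genes per member, genes of the pathway lists with the largest spread or smallest p, and ISG15 and MX1; other list genes and cell markers in the text were picked with their values in view. The alternatives were other level filters and scalings, the replicate block, weights per array, a robust prior with an intensity trend, exact permutation, probe set means and leaving out each array. Replicate numbers were not taken as pairing animals: of 9 same-numbered pairs, 3 had deviations that correlated over 0.1 (-0.11 to 0.16).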

Additional observations from a re-analysis of the deposited data

Results flagged for a closer look

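Single retinas stood apart from the other 8 of their diet in 6 of 100 groups examined (50 probe sets of the members and pathway genes in 2 diets), where chance gives about 5. Among the members, PSMB8 was high in sialyllactose replicate 4 (2.66, next 1.88), and its diet difference was 0.18 with and 0.06 without that retina. The second TAP1 probe set was high in control replicate 2 (2.58, next 2.39), and its difference was 0.09 with and 0.12 without it. CALR, an endoplasmic reticulum chaperone, was high in sialyllactose replicate 8 (6.16, next 5.58) and in control replicate 6 (6.11, next 5.67). LGMN, a lysosomal protease, was low in control replicate 5 (4.62, next 4.89), and JAK1, a kinase of interferon receptors, was high in control replicate 9 (7.77, next 7.41).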

How the results depend on the processing

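In every fit run, 0 probe sets passed the adjusted threshold over the table and 0 of the 7 genes did, including the fit with the replicate number as a block (0 and 0), which changed no call. At an unadjusted p under 0.05 the whole table gave 1059 probe sets, 1140 with the replicate block, 697 with a filter of 50% of probe sets, where fewer were tested, and 929 to 1233 without single arrays. The exact two-sided permutation p over 48620 splits ran from 0.258 in SLA-3 to 0.836 in TAP1 among the 7 genes. PSMB8 and UBD lay under the 50% filter. The SLA-3, SLA-DRA and PSMB8 differences kept their sign in all alternatives run (SLA-3 -0.46 to -0.23, SLA-DRA -0.37 to -0.06, PSMB8 0.06 to 0.22). Signs turned for the brightest B2M set (-0.01) with arrays centred on their median (0.0072) or quantile normalized again (0.0081), and for TAP1 (0.07) with array weights (-0.011) and as the mean of its probe sets (-0.0018); the cause was not tested. Without single arrays the difference ran from -0.035 to 0.0076 in B2M, from -0.23 to 0.028 in SLA-2, from -0.11 to 0.18 in TAP1 and from -0.46 to 0.065 in UBD. The median pooled SD of the 7 genes was 0.65, from 0.61 to 0.67 without single arrays and 0.69 with B2M at its second brightest set, an alternative chosen after seeing the data. As the mean of all their probe sets, B2M and TAP1 had pooled SDs of 0.13 and 0.26. Dim probe sets (PSMB8, UBD, CIITA) are limited by signal near background.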
